A study of Homo sapiens with 6 samples.

Results

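The 10 genes described here encode the hydroxylases that act on hypoxia-inducible factor (HIF) and on collagen. They are EGLN1, EGLN2, EGLN3, HIF1AN, P4HA1, P4HA2, P4HTM, PLOD1, PLOD2 and PLOD3. They were listed by symbol, without regard to their values, and all 10 were found among the 60660 gene IDs of the deposited RNA-seq files. The cells were OCI-AML3, an established acute myeloid leukaemia line, in 2 groups of 3 libraries. One group carried an empty lentiviral vector and the other overexpressed SLC2A3, the gene of the glucose transporter GLUT3. Both groups received 250 µM vitamin C, so no value here separates the vitamin from the transporter. The labels name neither the promoter that drove SLC2A3 nor whether each group was a clone or a pool.

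These enzymes belong to the 2-oxoglutarate dioxygenases, which use iron, oxygen and 2-oxoglutarate, and for which vitamin C keeps the iron in its active, reduced state. EGLN1, EGLN2 and EGLN3 hydroxylate prolines of the HIF alpha subunits, which marks these for capture by VHL and degradation. HIF1AN hydroxylates an asparagine of HIF alpha and so hinders binding of the coactivators EP300 and CREBBP, and is therefore neither a prolyl nor a lysyl hydroxylase of HIF. P4HA1 and P4HA2 are the catalytic subunits of collagen prolyl 4-hydroxylase, which work in a complex with the subunit P4HB. PLOD1, PLOD2 and PLOD3 hydroxylate collagen lysines. P4HTM sits in the membrane of the endoplasmic reticulum, and among its reported substrates is HIF alpha rather than collagen. Several of the genes, among them EGLN1, EGLN3, P4HA1 and PLOD2, are textbook targets of HIF itself. Read counts report the amount of transcript and not the activity of these enzymes.

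Promoters are shown for 3 of the 10 genes, P4HA1, EGLN1 and EGLN2, the ones whose values did not overlap between groups. Of these, P4HA1 alone passed the threshold given below. The core sequence that HIF recognises, ACGTG or GCGTG, can be read in them. It can also be read in PLOD1 and PLOD2, which are not shown, so the sequence does not set the 3 genes apart. All 10 genes matched the RefSeq promoter table (build GRCh38.p14). Each sequence below is the 250 bases before the transcription start, written 5′ to 3′ on the strand of the gene, and capitals mark each ACGTG or GCGTG on either strand, so that CACGT is ACGTG read on the opposite strand.
P4HA1 (chr10:73096867-73097116, minus strand): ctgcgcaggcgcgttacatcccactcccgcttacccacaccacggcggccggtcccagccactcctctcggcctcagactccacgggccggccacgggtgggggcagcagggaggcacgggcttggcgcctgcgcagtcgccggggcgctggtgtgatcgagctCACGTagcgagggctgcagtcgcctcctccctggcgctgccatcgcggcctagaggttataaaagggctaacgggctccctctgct
EGLN1 (chr1:231422288-231422537, minus strand): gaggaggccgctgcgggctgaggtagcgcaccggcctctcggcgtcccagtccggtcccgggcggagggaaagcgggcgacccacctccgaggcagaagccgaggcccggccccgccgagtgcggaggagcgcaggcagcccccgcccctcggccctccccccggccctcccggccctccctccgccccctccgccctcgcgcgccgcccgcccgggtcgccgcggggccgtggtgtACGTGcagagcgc
EGLN2 (chr19:40798941-40799190, plus strand): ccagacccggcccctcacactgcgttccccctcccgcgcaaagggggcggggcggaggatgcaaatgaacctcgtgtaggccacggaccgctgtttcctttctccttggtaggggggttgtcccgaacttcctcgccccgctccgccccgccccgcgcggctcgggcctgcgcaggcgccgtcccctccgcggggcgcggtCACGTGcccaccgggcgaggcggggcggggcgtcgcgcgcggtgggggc
The P4HA1 window held 1 ACGTG on the opposite strand, which began 86 bases before the start. The EGLN1 window held 1 on the gene's own strand, 13 bases before it. In EGLN2 the run CACGTG reads as ACGTG on both strands, so its matches overlap, and a second EGLN2 window in the table held none. Of the 10 genes, 4 had an ACGTG in such a window, the fourth being PLOD2, against 18.5% of all 35116 windows of that length in the table. GCGTG was found for PLOD1 and PLOD2 and in 32.2% of all windows. One or the other was found for EGLN1, EGLN2, P4HA1, PLOD1 and PLOD2 and in 43.2% of all windows. The 10 genes had 11 windows, so a share of genes and a share of windows are not the same measure. These matches describe the letters of the windows and are not evidence of binding.

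Library depth was 31054462 to 35770556 recovered reads, and the mitochondrial share of the values was 4.47% to 4.98%. SLC2A3 had 1194, 1183 and 1257 normalised reads with the empty vector against 4056, 3716 and 4054 where it was overexpressed, the direction the labels give. All 10 myeloid markers were present at a mean of at least 100 normalised reads, 9 of them at 1000 or more, with MPO, the granule peroxidase, lowest. FLT3, a receptor tyrosine kinase of myeloid progenitors, fell 1.16-fold (limma adjusted p = 0.0277), and passed in 1 of 6 fits that left out a library. Markers of erythroid cells were at or near 0, with HBB and HBA1 listed at 0 throughout, as were the lymphoid markers CD3E and MS4A1. The 6 fibroblast markers summed to 22.4 to 54.1 normalised reads against 35.2 to 96.9 with SLC2A3. Among them COL1A2 did not overlap between groups, at 0, 5 and 7.01 against 14.9, 28.8 and 8.54. The 5 epithelial markers summed to 25 to 49.9 against 36.2 to 69.4. The noncoding RNA RN7SL1, part of the signal recognition particle, was 538, 1812 and 705 against 2233, 6026 and 1922. Replicate 2 was the highest in both groups. The part of these markers in the results below was not tested, but values without both replicates numbered 2 are given beside the main result. In RNA from whole cultures, fewer cells of a type and less RNA per cell cannot be told apart.

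Normalised reads are read counts per gene that the authors scaled by a single factor for each library. A gene was said to rise or fall when limma, fitted to log2(value + 1) over 28015 genes, gave a Benjamini-Hochberg adjusted p under 0.05, and differences are on that log2 scale, SLC2A3 minus empty vector. All 10 hydroxylase genes passed the filter on low values. Of the 10, P4HA1 rose, 0 fell and 9 did not pass, against 1.49% of all tested genes called in either direction and 0.692% called higher. The median difference of the 10 was -0.05, with 3 above 0 and 7 below, beside 0.0014 over all tested genes. An unadjusted p under 0.05 was reached by 4 of the 10, P4HA1, EGLN1, EGLN2 and PLOD2, against 11.8% of all genes. Whether replicates came from separate cultures is not in the labels, and the p-values therefore cover no more than the variation among these 6 libraries, possibly technical.

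**Figure D1:**
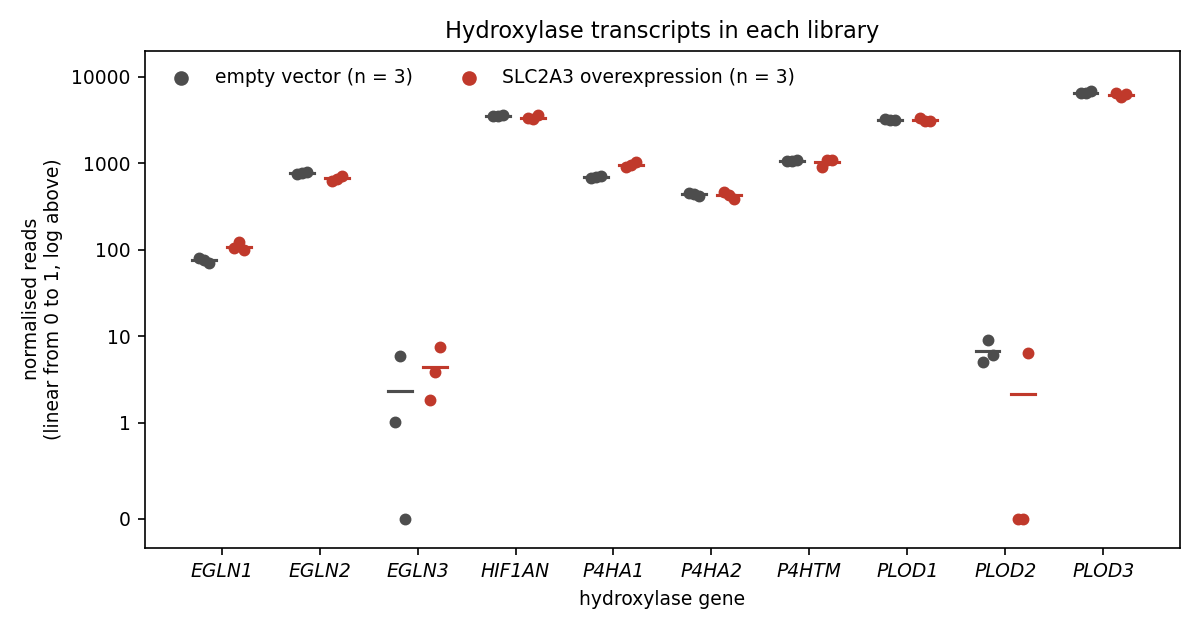
Normalised reads (vertical axis, linear from 0 to 1 and logarithmic above) of the 10 hydroxylase genes in each of 6 libraries, with points for libraries and bars for group means of 3. PLOD3, HIF1AN and PLOD1 lie at 3081 or above and EGLN3 and PLOD2 at 9 or below, and the groups are apart for P4HA1, EGLN1 and EGLN2.

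P4HA1 (ENSG00000122884.12, chromosome 10, 73007217 to 73096974, minus strand, GRCh38), the main catalytic subunit of collagen prolyl 4-hydroxylase in most tissues, was the hydroxylase gene that rose. Its values were 676, 693 and 716 normalised reads with the empty vector against 903, 963 and 1034 with SLC2A3. Every SLC2A3 library was above every empty vector library. Means were 695 ± 19.8 and 966 ± 65.7 (SD, n = 3), a 1.39-fold difference. The log2 difference was 0.47 (SE 0.076, 95% confidence interval 0.32 to 0.63, limma adjusted p = 0.000583). The counts behind it were 2072 reads against 2944. P4HA1 also passed without both replicates numbered 2, at 0.47 (limma adjusted p = 0.0005115), and without each library in turn, at 0.42 to 0.52 with a highest adjusted p of 0.0207. It lost its call when limma pooled the spread without regard to expression level (adjusted p = 0.303), a setting under which 27 genes passed in all.

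P4HA2 (ENSG00000072682.19, chromosome 5, 132191838 to 132295315, minus strand), the alternative catalytic subunit, did not pass. Its values were 456, 438 and 415 against 462, 425 and 389 normalised reads, and the groups overlapped. The difference was -0.04 (95% confidence interval -0.24 to 0.16, limma adjusted p = 0.929), an interval that lies below that of P4HA1. The ratio of P4HA1 to P4HA2 reads within a library was 1.48, 1.58 and 1.72 with the empty vector against 1.95, 2.27 and 2.66 with SLC2A3. The groups did not overlap, and the exact two-sided permutation test gave p = 0.1, the smallest that 3 against 3 libraries allow (adjusted p = 0.1 over 3 ratios). Per kilobase of transcript, P4HA1 made up 65.2% ± 1.71 of the sum of both subunits with the empty vector and 72.7% ± 3.06 with SLC2A3 (SD, n = 3), by the length of the principal transcript. By the length of all annotated exons it made up 81.4% ± 1.14 and 86.1% ± 1.84. P4HA3, a related catalytic subunit outside the 10, was near 0, at 7 reads summed over the empty vector libraries against 6 over the SLC2A3 libraries.

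P4HB, which binds both catalytic subunits and is also a protein disulphide isomerase, was far more abundant and differed by less than the spread between libraries. It had 50175 ± 191 normalised reads with the empty vector and 50424 ± 1119 with SLC2A3 (SD, n = 3), a difference of 0.01 (limma adjusted p = 0.969). The ratio of P4HA1 to P4HB was 0.0135, 0.0138 and 0.0143 against 0.0176, 0.0190 and 0.0210 with SLC2A3, without overlap (exact permutation p = 0.1). As P4HB varied little between libraries, this ratio largely restates the P4HA1 values and is not a separate result.

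**Figure D2:**
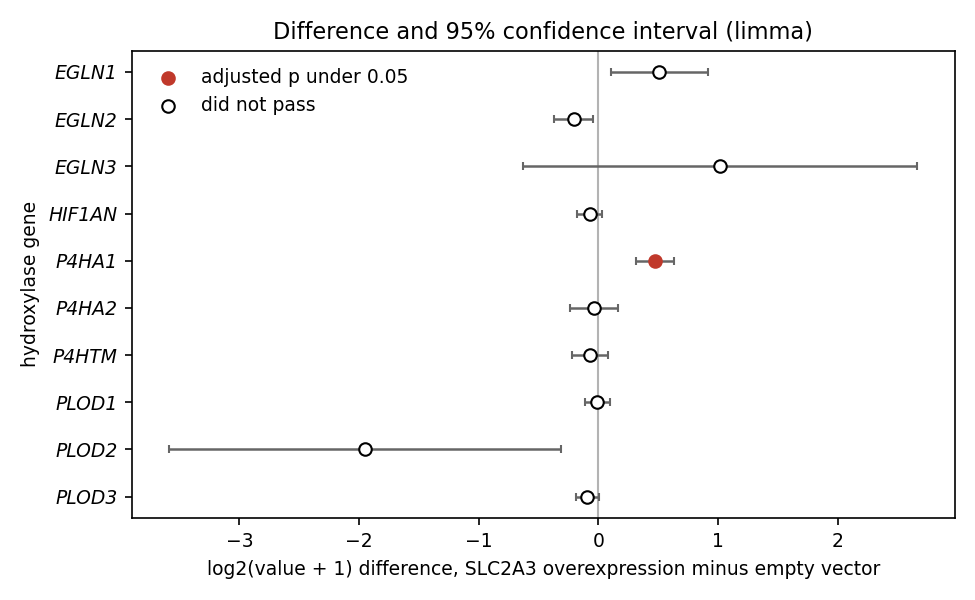
Difference in log2(value + 1), SLC2A3 overexpression minus empty vector (horizontal axis), of the 10 hydroxylase genes, with bars for the 95% confidence interval from limma over 3 libraries per group and a filled point for the gene past the threshold. The intervals of P4HA1 and EGLN1 lie above 0 and those of EGLN2 and PLOD2 below, while EGLN3 and PLOD2 have the widest.

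Among the HIF prolyl hydroxylases, EGLN1 and EGLN2 stood apart between groups in opposite directions, and neither passed. EGLN1 (ENSG00000135766.9, chromosome 1, 231363751 to 231425044, minus strand), regarded as the main oxygen sensor of most cells, was at 81.5, 77.0 and 70.1 normalised reads against 105, 122 and 100.4. The lowest SLC2A3 library was above the highest empty vector library. The difference was 0.51 (95% confidence interval 0.11 to 0.91, limma adjusted p = 0.253), close in size to that of P4HA1 but measured on 227 and 334 reads. EGLN2 (ENSG00000269858.6, chromosome 19, 40798996 to 40808433, plus strand), known as an oestrogen-inducible member, was at 750, 773 and 786 against 629, 659 and 718. Its SLC2A3 libraries were all lower, with means of 770 ± 18.4 and 668 ± 45.3 (SD, n = 3). The difference was -0.20 (95% confidence interval -0.37 to -0.04, limma adjusted p = 0.254). In all, 3 of the 10 hydroxylase genes had groups that did not overlap, 2 higher and 1 lower, against 16.3% of all tested genes. EGLN1 and EGLN2 passed in none of the alternatives that gave them an adjusted p, the lowest being 0.142 and 0.150.

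The ratio of EGLN1 to EGLN2 reads was 0.109, 0.0996 and 0.0892 against 0.167, 0.185 and 0.140 with SLC2A3. Means were 0.0992 ± 0.00977 and 0.164 ± 0.0226 (SD, n = 3), with a log2 difference of the ratio of 0.72. The groups did not overlap (exact permutation p = 0.1, the smallest possible). With EGLN1 higher and EGLN2 lower in every SLC2A3 library, the ratio could not overlap, so this outcome adds no evidence to the values of each gene. Per kilobase, EGLN2 was the dominant transcript of the family in both groups. It made up 95.9% ± 0.587 of the EGLN sum with the empty vector and 93.3% ± 0.596 with SLC2A3, and EGLN1 made up 3.78% ± 0.356 and 6.07% ± 0.804. These shares use the principal transcript length. By the length of all annotated exons EGLN1 made up 8.21% ± 0.740 and 12.8% ± 1.58, while the ratios of reads use no length. EGLN2 shares 30.6% of its annotated exon bases with the read-through gene RAB4B-EGLN2, which was listed at 0 in all 6 libraries, and how reads of the shared part were assigned is not given in the labels, so the EGLN2 level is uncertain.

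**Figure D3:**
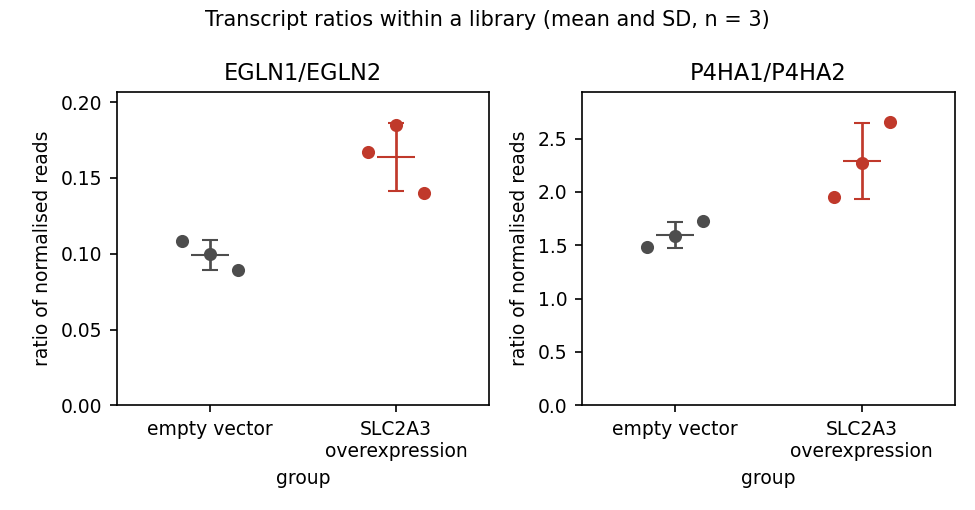
Ratio of normalised reads within each library (vertical axes from 0) for EGLN1 to EGLN2 and for P4HA1 to P4HA2, with points for libraries and bars for the mean and SD of 3. The EGLN1 to EGLN2 ratio is 0.109 or below with the empty vector and 0.140 or above with SLC2A3, and the P4HA1 to P4HA2 ratio is 1.72 or below and 1.95 or above. The separation of the EGLN1 to EGLN2 ratio follows from the values of each gene.

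EGLN3 (ENSG00000129521.15, chromosome 14, 33924231 to 34462774, minus strand), the member most strongly induced by hypoxia in many cells, was barely detected. It had 1.02, 6 and 0 normalised reads against 1.86, 3.84 and 7.48. With 7 reads against 13 over the SLC2A3 libraries, the ratio was 1.81 with a 95% counting interval of 0.672 to 5.36, so a difference was not detectable at this depth. Such intervals cover counting error only.

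HIF1AN (ENSG00000166135.14, chromosome 10, 100529072 to 100559998, plus strand), the asparaginyl hydroxylase of HIF, was abundant and did not pass. Its values were 3540, 3496 and 3638 normalised reads against 3342, 3234 and 3576. Of its SLC2A3 libraries, 2 were below the empty vector range and 1 was inside it. The difference was -0.07 (95% confidence interval -0.18 to 0.03, limma adjusted p = 0.650). P4HTM (ENSG00000178467.18, chromosome 3, 48989886 to 49007154, plus strand) was at 1078, 1064 and 1079 against 911, 1091 and 1080. SLC2A3 replicate 1 alone lay below the others, and without it the difference, which did not pass either way, turned from -0.07 to 0.016 (limma adjusted p = 0.811 with all libraries and 0.964 without it).

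The lysyl hydroxylases showed no change that passed. PLOD3 (ENSG00000106397.12, chromosome 7, 101205977 to 101218420, minus strand), which also transfers sugars to collagen hydroxylysine, was the most abundant of the 10. It had 6450, 6471 and 6828 normalised reads against 6460, 5810 and 6267, a difference of -0.09 (95% confidence interval -0.19 to 0.00, limma adjusted p = 0.450). PLOD1 (ENSG00000083444.17, chromosome 1, 11934205 to 11975538, plus strand), which acts on lysines of the collagen triple helix, had 3275, 3131 and 3168 against 3315, 3081 and 3108. Its groups overlapped, and the interval of its difference, -0.12 to 0.09, was among the narrowest of the 10.

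PLOD2 (ENSG00000152952.12, chromosome 3, 146069440 to 146163653, minus strand), which acts on lysines of the collagen telopeptides, was close to the limit of detection. It had 5.09, 9 and 6.01 normalised reads against 0, 0 and 6.41. The reads, 20 against 6 over the SLC2A3 libraries, gave a ratio of 0.293 with a 95% counting interval of 0.0962 to 0.755. The groups overlapped, and limma gave a difference of -1.95 (adjusted p = 0.293) that ranged from -0.82 to -4.04 with the pseudocount, so its size depends on that setting. EGLN3 and PLOD2, the pair at the limit of detection, thus had the widest intervals of the 10.

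Between genes, levels can be compared only per kilobase of transcript, here of the principal GENCODE transcript. In the empty vector group PLOD3 was highest at 2254 ± 72.8 normalised reads per kilobase (SD, n = 3), followed by PLOD1 at 1086 ± 25.4 and P4HTM at 505 ± 3.92. HIF1AN at 273 ± 5.59 and EGLN2 at 273 ± 6.51 overlapped, and P4HA1 came below them at 244 ± 6.97. P4HA2 followed at 130 ± 6.11, then EGLN1 at 10.7 ± 0.810, while PLOD2 at 1.80 ± 0.548 and EGLN3 at 0.864 ± 1.19 overlapped. In the SLC2A3 group the order was the same except that P4HA1, at 340 ± 23.1, stood above HIF1AN at 260 ± 13.4 and EGLN2 at 237 ± 16.1, and that EGLN3 and PLOD2 exchanged places. The middle of this order depended on the length used. With the length of all annotated exons in place of the principal transcript, empty vector levels per kilobase were 255 ± 5.21 for HIF1AN, 225 ± 6.41 for P4HA1, 141 ± 1.09 for P4HTM and 117 ± 2.79 for EGLN2 (SD, n = 3). P4HA1 then stood above EGLN2 in both groups, HIF1AN and EGLN2 did not overlap, and P4HTM moved from rank 3 to rank 5 in both groups. P4HA1 was below HIF1AN with the empty vector and above it with SLC2A3 by either length.

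The list of 16 tested genes for the HIF subunits and their degradation also held the coactivators EP300 and CREBBP and the CITED genes. Of the 16, 0 rose and 4 fell (list median -0.03), against 0.8% of all genes called lower. EPAS1 was the only HIF subunit among those that fell, and none of them was a degradation gene. CITED2, which competes with HIF for EP300 and CREBBP, fell 1.17-fold, from 13276 ± 336 to 11310 ± 264 normalised reads (SD, n = 3, limma adjusted p = 0.00106). The coactivators CREBBP and EP300 fell 1.22-fold and 1.19-fold (limma adjusted p = 0.00222 and 0.00476). EPAS1, the HIF-2 alpha subunit, fell 1.21-fold, from 1068, 1018 and 1061 to 807, 884 and 908 (limma adjusted p = 0.0453). The EPAS1 call was lost without each of the 6 libraries in turn (adjusted p up to 0.179), and with a replicate block in limma (adjusted p = 0.06946). EP300 also lost its call without SLC2A3 replicate 3 (adjusted p = 0.0536), and the list count fell to 2 there. HIF1A, the substrate most closely tied to EGLN1, was at 1723 ± 157 against 1824 ± 153 (limma adjusted p = 0.731), and VHL at 4589 ± 126 against 4888 ± 189 (adjusted p = 0.468).

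Of 35 tested HIF target genes, a list that holds 5 of the 10 hydroxylases, 10 rose and 0 fell, against 0.692% of all tested genes called higher. Without those 5, 9 of 30 rose (median 0.20, beside 0.0014 over all tested genes), and with limma's spread pooled regardless of level 0 of the 35 passed. Groups did not overlap for 17 of the 30 in the higher direction and 1 in the lower, against 8.04% and 8.27% of all genes. This list was chosen with earlier results of these data known, so its count is not independent evidence. BNIP3, a mitophagy receptor, rose from 637 ± 50.4 to 1013 ± 58.4 normalised reads (SD, n = 3, 1.59-fold, limma adjusted p = 9.96e-06). DDIT4, an inhibitor of mTORC1, rose 2.26-fold on low reads (60.4 ± 1.55 to 137 ± 28.5), AK4, a mitochondrial adenylate kinase, 1.41-fold, the transcription factor ZNF395 1.24-fold and LDHA, lactate dehydrogenase A, 1.16-fold. The P4HA1 difference of 0.47 lies between those of AK4, 0.49, and ZNF395, 0.31. Without SLC2A3 replicate 3 the list count fell from 10 to 5, and ZNF395 was among those lost (adjusted p = 0.0929).

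**Figure D4:**
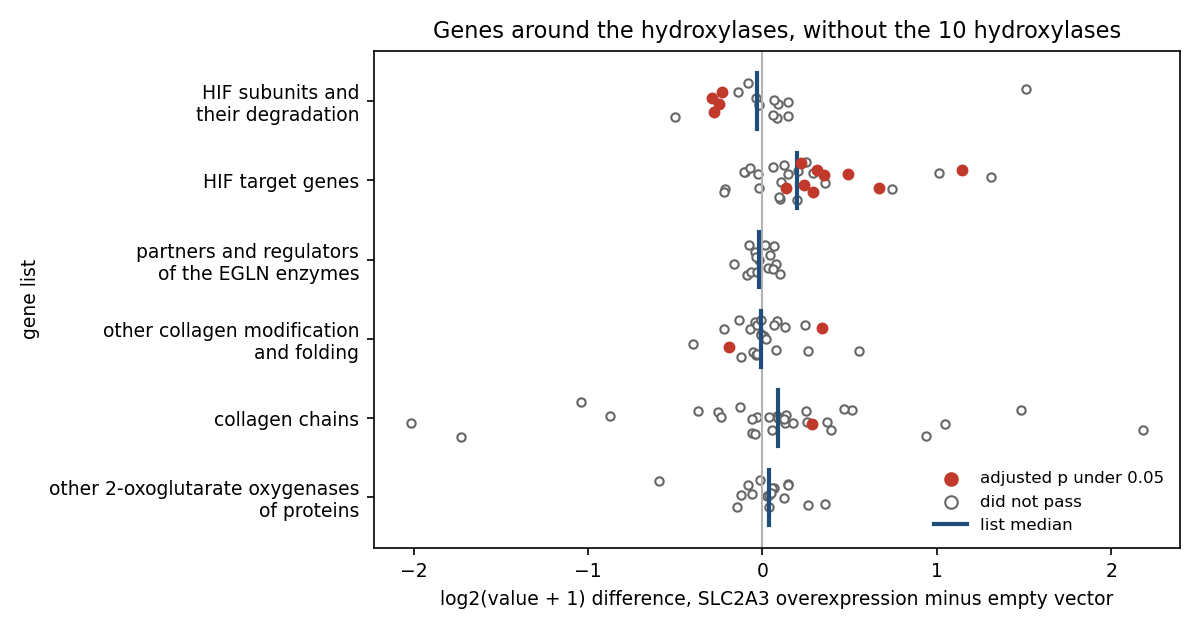
Difference in log2(value + 1), SLC2A3 overexpression minus empty vector (horizontal axis), of tested genes in 6 lists, the 10 hydroxylases left out, with filled points past the threshold, open points that did not pass and bars for the list median. The HIF target genes have a median of 0.20 with 9 of 30 filled on the right. The HIF subunit list, which also holds coactivator and CITED genes, has 4 filled on the left, of which EPAS1 alone is a subunit. The list labelled as oxygenases of proteins also holds PHYH and TYW5, which do not act on proteins.

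Of 15 partners and regulators of the EGLN enzymes, among them the ubiquitin ligases SIAH1 and SIAH2 that degrade them, 0 passed by limma, 0 had an unadjusted p under 0.05, and 0 passed by edgeR or DESeq2 (median -0.02). Of 17 other genes of the 2-oxoglutarate oxygenase family, such as JMJD6 and the ribosomal prolyl hydroxylase OGFOD1, 0 passed by limma, edgeR or DESeq2. Not all of them act on proteins, as the list also held PHYH and TYW5. Among these 17, 2 had an unadjusted p under 0.05 (limma median 0.04). Over all tested genes, 1.49% passed by limma and 11.8% had an unadjusted p under 0.05.

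Of 24 tested genes for other collagen modification and folding, 1 rose and 1 fell (median -0.01). Over all tested genes 0.692% were called higher and 0.8% lower, the shares to set beside each count of called genes in this paragraph. FKBP10, a prolyl isomerase of the endoplasmic reticulum that aids telopeptide lysyl hydroxylation, rose 1.27-fold, from 1424, 1565 and 1479 to 2019, 1822 and 1821 normalised reads (limma adjusted p = 0.00243). ADAMTS2, the procollagen N-proteinase, fell 1.14-fold (limma adjusted p = 0.0398) and lost its call without each library in turn and with a replicate block in limma. Of 42 collagen chains, 24 had a mean under 10 normalised reads, 10 reached 100 and 5 reached 1000, led by COL6A2, COL27A1 and COL6A1. Among fibrillar chains, COL1A1, COL1A2 and COL3A1 were at 30.6 normalised reads or below in every library. Fibrillar chains were not all low, as COL27A1, also of that class, was at 3647 ± 82.8 with the empty vector and 3507 ± 264 with SLC2A3 (SD, n = 3). Of 31 tested chains, COL23A1, a transmembrane collagen, rose 1.22-fold, from 1511 ± 80.7 to 1838 ± 49.0 (SD, n = 3, limma adjusted p = 0.0106). It did not pass without empty vector replicate 1 (adjusted p = 0.0915). Of 14 tested proteins with collagen-like repeats, FCN1, a ficolin of monocytes, rose 1.66-fold (limma adjusted p = 0.0399) and lost its call without each library in turn and with a replicate block in limma.

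The genes whose values followed P4HA1 most closely over the 6 libraries, by the root-mean-square difference of centred log2(value + 1) among 11729 genes with a mean of at least 100, were ANKRD24 (0.0533), CCDC191 (0.0690), ICOSLG (0.0694), SCD (0.0705) and KLF4 (0.0709). None of these 5 is in the lists above. They were picked by likeness to P4HA1 over these same libraries, so a higher mean in the SLC2A3 group follows from the choice. The fold ran from 1.29 for SCD, the fatty acid desaturase, to 1.40 for ANKRD24. Test results for these genes are likewise not independent of that choice. CCDC191 did not pass the test (limma adjusted p = 0.124). KLF4 passed with all libraries (limma adjusted p = 0.0229) but in only 1 of 6 fits that left out a library (adjusted p up to 0.164).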

How the data were processed

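Per the labels' protocols, RNA was taken up in Trizol and a strand-preserving NEBNext kit was used. BWA, TopHat2 and hg38 are named in the submitters' processing notes without roles or versions, with the counter, annotation and use of strand not given in the sources used here. Protein sequences were not analysed here. Each deposited value is a scaled signal, the reads of a gene that the authors divided by a factor particular to the library (0.936 to 1.08): 100% were whole multiples of 1 step within 0.001 reads, and the factors equalled median-of-ratios factors. The members and gene lists were chosen with earlier results of these data known. Genes reaching 1 in 3 or more libraries were fitted with limma 3.58.1 (trend, pseudocount 1, group as the only term) in R 4.3.3. edgeR 4.0.16 and DESeq2 1.42.0 on the recovered reads, other scalings, filters and pseudocounts, a replicate block and left-out libraries were alternatives. Coordinates and lengths are from GENCODE 29 (GRCh38), which may differ from the authors' annotation. Symbols matched 60641 of 60660 IDs.

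Named genes were the 10 members, SLC2A3, up to 6 called genes per list by smallest p, HIF1A, EPAS1, VHL, P4HB and P4HA3, genes whose exons overlap a member, and the 5 genes closest in pattern to each called member. Others were chosen after their values were seen. Replicates differed beyond sampling noise (chi-square per gene 3.50 to 6.78). In simulated counts for this comparison (28838 genes tested), limma recovered 87 of 100 genes with a 1.5-fold change and 96 of 100 with a 2-fold change, with 3 of 186 calls false. The changed genes were drawn only from genes above a floor of expression that EGLN3 and PLOD2 do not reach. Spread between simulated replicates was set by a formula and not estimated from these libraries, so the rates may not hold for the real data.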

Additional observations from a re-analysis of the deposited data

How the results depend on the processing

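P4HA1 was called under 19 of 20 alternatives, at 0.42 to 0.52, and the other 9 hydroxylase genes under none. The exception was limma without the intensity trend, where 0 hydroxylases rose and 13 genes were higher and 14 lower in all, and the cause was not tested. DESeq2 with default filtering gave 343 genes higher and 441 lower, a limit of 50 reads in 3 libraries 322 and 417, with fewer genes tested, and a pseudocount of 0.1 gave 144 lower, against 194 higher and 224 lower. DESeq2's default filtering gave no adjusted p to EGLN1, EGLN3 and PLOD2, and edgeR and the limit of 50 did not test EGLN3 and PLOD2. Leaving out 1 library, with fewer samples, gave 100 to 222 genes higher, 88 to 244 lower, and 1 hydroxylase higher each time. Signs turned only for values near 0 that did not pass: leaving out 1 library gave -0.1022 to 0.0227 for P4HA2 (highest without SLC2A3 replicate 3), -0.1144 to 0.0158 for P4HTM (SLC2A3 replicate 1), -0.0442 to 0.0086 for PLOD1 (above 0 without empty vector replicate 1 or SLC2A3 replicate 2 or 3), -0.0071 to 0.0244 for P4HB (lowest without SLC2A3 replicate 1) and -0.3935 to 0.2681 for P4HA3 (highest without empty vector replicate 3). Scalings moved the median of all genes by under 0.1. Same-numbered samples did not deviate together (correlations of -0.0793, -0.0022 and -0.0038 over 13277 genes). A replicate block left P4HA1 called, at 0.47 (limma adjusted p = 0.0004909), with 167 genes higher and 196 lower. The length of all annotated exons, an alternative chosen after seeing the data, gave with the empty vector and with SLC2A3 shares of 8.21% and 12.8% for EGLN1, 91.5% and 86.7% for EGLN2, 81.4% and 86.1% for P4HA1, 18.6% and 13.9% for P4HA2, 34.1% and 35.3% for PLOD1 and 65.9% and 64.6% for PLOD3. It moved the level to rank 3 and 4 for HIF1AN, 4 and 3 for P4HA1, 5 and 5 for P4HTM and, with the empty vector, 6 for EGLN2.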

Other observations

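Some values outside the rule for named genes were chosen after they were seen. HIF3A, a HIF alpha subunit that can restrain the others, was at 5.09, 6 and 9.01 normalised reads against 22.3, 21.1 and 18.2 with SLC2A3, without overlap, and did not pass (limma adjusted p = 0.153). The collagen prolyl 3-hydroxylase P3H3 was at 718 ± 15.9 against 860 ± 51.7 (SD, n = 3) and its relative P3H4 at 639 ± 5.86 against 757 ± 42.1, both without overlap and neither past the threshold (limma adjusted p = 0.0940 and 0.143). P3H1 was at 2854 ± 39.3 against 2770 ± 67.2, with overlap, and P3H2 was listed at 0 throughout.

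Annotated exons of other genes overlap those of 6 of the 10 hydroxylase genes. The share of the member's exon bases was 7.56% for PLOD3 with ZNHIT1 on the opposite strand, 6.45% for P4HA2 with P4HA2-AS1 and 2.33% for HIF1AN with NDUFB8. P4HA2-AS1 was listed at 0 in all 6 libraries. P4HA1 shares 1.52% with an antisense gene that had 0 to 6.01 normalised reads. An antisense gene that shares 103 exon bases with P4HTM had 25.1 normalised reads in SLC2A3 replicate 1, where P4HTM was lowest, and 5.75 to 10 in the other 5 libraries. P4HTM also shares 93 exon bases with WDR6 on the same strand, which had 5571 to 6616 normalised reads. The labels do not say whether reads were counted by strand, nor how reads of bases shared on the same strand were assigned.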
